A study of Cucumis sativus with 6 samples.

Results

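The 4 genes described here are those of the deposited table whose protein descriptions read trehalose-phosphate synthase 9 (Csa5G602180), trehalose-phosphate phosphatase G (Csa3G033800), alpha-amylase 2 (Csa4G652880) and pyruvate, phosphate dikinase (Csa3G150740). They were chosen by gene identifier, and all 4 were found among the 1589 genes of that table. The table holds genes that the authors had already selected as differing between the genotypes, so a difference was built into every gene in it, and no test below is independent of that selection. The RNA sequenced came from female buds of cucumber, Cucumis sativus, collected 7 days ahead of flower opening. The wild type and the mutant, given as Cshec2-/- in the labels, each had 3 libraries, described as biological replicates. No treatment applied to either group and no difference in line other than the mutation is given in the labels, which also do not name the cultivar or the mutant allele. No description in the table names HECATE (0 genes), so the expression of CsHEC2 itself could not serve as a check of the genotype labels. The names below are similarities to described proteins, mostly from Arabidopsis, and not established cucumber identities.

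Trehalose 6-phosphate is made from UDP-glucose and glucose 6-phosphate by trehalose-phosphate synthase, and trehalose-phosphate phosphatase removes its phosphate. In plants its level follows that of sucrose, and it restrains SnRK1, the kinase that switches on carbon-saving metabolism when sugar is short. In Arabidopsis the catalytic synthase is TPS1. TPS9 and TPS10 belong to the class II proteins, which carry both a synthase-like and a phosphatase-like part and for which little catalytic activity has been shown. In maize the phosphatase RAMOSA3 shapes the branching of flower-bearing shoots, which links this small family to flower development. Alpha-amylase cuts starch within its chains. Pyruvate, phosphate dikinase converts pyruvate to phosphoenolpyruvate, the step that lets carbon run back towards sugars.

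All 4 genes were lower in the mutant buds. Their mean values in wild type were 2.60-fold (TPS9-like), 2.19-fold (TPPG-like), 1.88-fold (PPDK-like) and 1.53-fold (AMY2-like) those in the mutant. With limma on log2(value + 1), adjusted over the whole table by the Benjamini-Hochberg method, 4 of 4 passed an adjusted p of 0.05 as lower, against 74.3% of all listed genes. In 4 of 4 the mutant and wild type ranges did not overlap, as was true in that direction for 75.7% of the table. These counts are therefore what the selected table gives for most of its genes. The median log2 change of the 4 was -0.68, beside -0.77 for all listed genes. The exact two-sided permutation test gave p = 0.1 for each of the 4, the smallest p that 3 libraries against 3 allow.

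The TPS9-like gene Csa5G602180 had deposited expression values of 7.70, 9.69 and 9.23 in mutant libraries 1 to 3. The deposited values are normalised, but the header does not name their unit, so levels are not compared between genes. In wild type libraries 1 to 3 it lay at 13.3, 21.5 and 34.3. The wild type libraries were uneven, with library 3 at 2.57 times library 1, while the mutant libraries lay within 1.26-fold of each other. Its mean was 8.88 ± 1.04 in mutant buds and 23.0 ± 10.6 in wild type buds (SD, n = 3), and limma put its log2 change at -1.19 (SE 0.32, adjusted p = 0.0133). Of the listed genes, 23.9% had a lower log2 change. For this gene the authors' deposited table lists a log2 fold change of -1.18 (FDR 3.24e-05). The table lists 3 Pfam domains for its product, glycosyltransferase family 20, trehalose-phosphatase and a haloacid dehalogenase-like hydrolase, so both the synthase-like and the phosphatase-like part are annotated. It was the 1 gene of the 4 that stayed lower with an adjusted p under 0.05 whichever library was left out (46.9% of the table did). When wild type was represented by library 1 alone, the change shrank to -0.54, so more of its size came from wild type libraries 2 and 3 than from library 1. That comparison has 1 wild type library, which is assumed to vary as the mutant libraries do, and here and below its values say nothing of the wild type spread.

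The TPPG-like gene Csa3G033800, whose annotated domain is the trehalose-phosphatase alone, lay at 1.63, 1.20 and 1.15 in the mutant libraries. Its wild type values were 4.26, 2.24 and 2.22. Here wild type library 1 was the high one, at 1.92 times library 3, the reverse of the TPS9-like gene. Mutant libraries averaged 1.33 ± 0.263 and wild type libraries 2.90 ± 1.17, and limma put the log2 change at -0.71 (SE 0.23, adjusted p = 0.0216). The authors' deposited table lists it at -0.93 (FDR 0.00365). The value added before taking logs, 1, understates the change of a gene at this level, and with 0.1 in its place the log2 change was -1.02. It did not pass without mutant library 2 (adjusted p = 0.0652) or mutant library 3 (adjusted p = 0.0670), and its log2 change became -1.18 against wild type library 1 alone.

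The AMY2-like gene Csa4G652880 was the most even of the 4. It lay at 5.68, 5.16 and 4.90 in the mutant libraries and at 7.46, 7.29 and 9.39 in wild type. The lowest wild type value was 1.28 times the highest mutant value. From means of 5.25 ± 0.398 and 8.05 ± 1.17, limma put the log2 change at -0.53 (SE 0.17, adjusted p = 0.0210). The authors' deposited table lists it at -0.65 (FDR 0.00061). Of the listed genes, 76.8% had a lower log2 change, so it was among the less changed genes of the table. In Arabidopsis the protein of this name is held to lie outside the plastid, where leaf starch is stored. It did not pass without mutant library 2 (adjusted p = 0.0702) or mutant library 3 (adjusted p = 0.0742).

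The PPDK-like gene Csa3G150740 lay at 1.86, 1.89 and 2.39 in the mutant libraries. Its wild type values were 3.38, 3.08 and 5.08, with library 3 the highest. From means of 2.05 ± 0.301 and 3.85 ± 1.08, limma put the log2 change at -0.65 (SE 0.20, adjusted p = 0.0185). The authors' deposited table lists -0.85 (FDR 0.000711). It is described by similarity to the chloroplast enzyme of the ice plant Mesembryanthemum crystallinum, a plant that can fix CO2 at night and uses the dikinase in that path. It did not pass without mutant library 1 (adjusted p = 0.0609) or mutant library 2 (adjusted p = 0.0622).

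**Figure D1:**
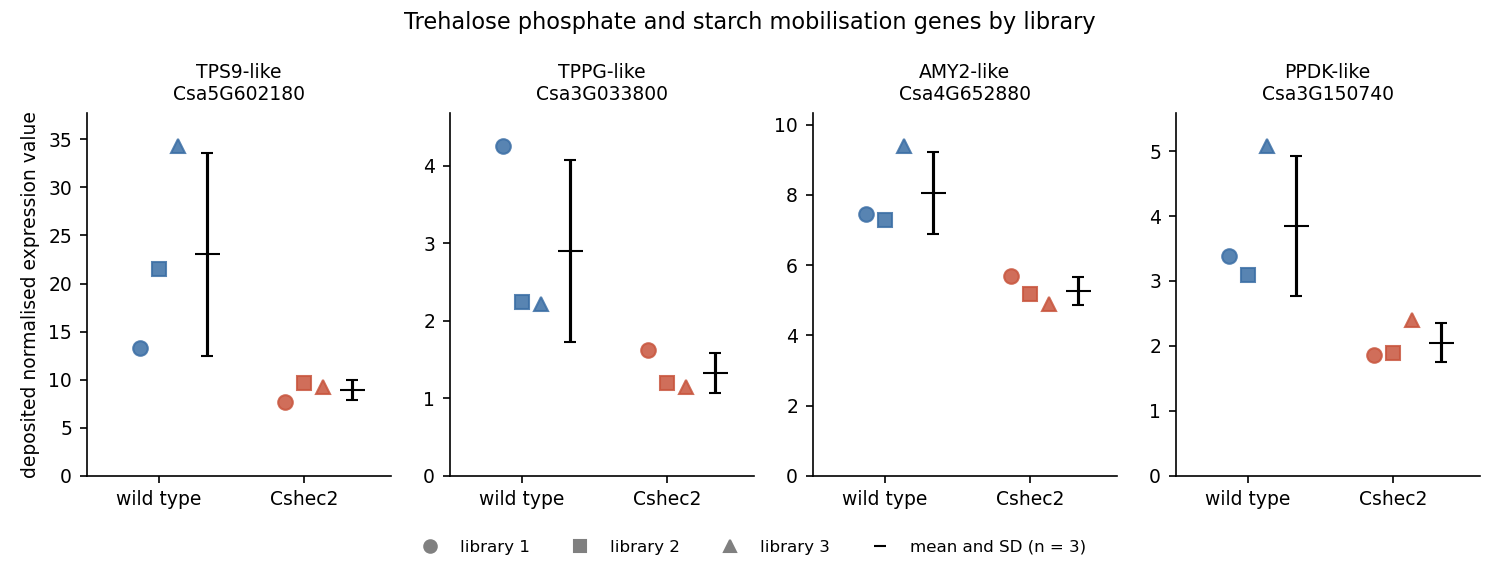
Deposited normalised expression value (y axis, from 0, a scale of its own for each gene) of the 4 genes in each of the 6 libraries. Blue points are wild type and red points Cshec2 libraries, the shape gives the library number, and the black bar is the mean with its SD (n = 3). All mutant points lie below all wild type points, and the high wild type library is library 3 for the TPS9-like gene (34.3) but library 1 for the TPPG-like gene (4.26).

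How far the 4 genes stand below wild type depends on how the libraries are set against each other. The summed values of the listed genes were between 23592 and 24173 in the mutant libraries and between 41126 and 59342 in the wild type libraries. Median-of-ratios scaling, computed from the listed genes, moved the median log2 change of all listed genes by 0.74, to -0.02. After that scaling 0 of 4 passed as lower, against 14.2% of the table. The log2 changes were then -0.33 for the TPS9-like gene and -0.11 for the TPPG-like gene, and turned to 0.28 for the AMY2-like and 0.03 for the PPDK-like gene. This scaling centres a table of selected genes of which 81.6% are listed as down, so it lifts the mutant values by construction. Relative to the table's median without scaling, the TPS9-like gene lay 0.43 further down (-0.43), and the TPPG-like (0.05), PPDK-like (0.11) and AMY2-like (0.24) genes at or above it. In bulk buds, fewer cells of a type and less RNA per cell cannot be told apart.

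Ratios between 2 genes of the same library are free of library scaling. For 6 pairs among the 4 genes, the mutant and wild type ratios were compared by the exact two-sided permutation test, and none had an adjusted p under 0.45, where 0.1 is the smallest unadjusted p possible. The TPS9-like to AMY2-like pair differed most. Its log2 ratio was 0.44, 0.91 and 0.91 in the mutant libraries and 0.84, 1.56 and 1.87 in wild type, a mean difference of -0.67 (exact permutation p = 0.3, adjusted p = 0.45). The 2 ranges overlapped, because wild type library 1 lay within the mutant values. For the TPS9-like to TPPG-like pair the mean difference was -0.20 (exact permutation p = 0.8, adjusted p = 0.8), and the log2 ratio ran from 1.65 in wild type library 1 to 3.95 in wild type library 3. The synthase-like and the phosphatase-like gene were thus lower in the mutant by amounts that could not be separated at this number of libraries, while within wild type they went opposite ways.

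The table held 3 more trehalose genes. The list found by the words trehalose and trehalase held 5 genes, of which 3 were lower, 1 was higher and 1 did not pass. The higher one was the TPS1-like gene Csa4G622880, named for the catalytic synthase of Arabidopsis. Its values were 62.8, 66.9 and 69.7 in the mutant libraries and 38.9, 35.5 and 40.7 in wild type. The mutant mean was 1.73 times that of wild type (66.5 ± 3.48 against 38.4 ± 2.66), and its log2 change was 0.78 (SE 0.13, limma adjusted p = 0.00353). Higher genes made up 18.4% of the table. The call held under each alternative that kept at least 2 libraries a genotype, with log2 changes between 0.72 and 0.82 when a library was left out and 1.69 after median-of-ratios scaling.

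The TPS10-like gene Csa1G005560, of class II like TPS9, lay at 5.67, 5.28 and 5.67 in the mutant libraries and at 5.73, 11.1 and 16.1 in wild type. Wild type library 1 was thus level with the mutant, and the log2 change of -0.77 (SE 0.33) did not pass (limma adjusted p = 0.0568). It passed without wild type library 1 (log2 change -1.14, adjusted p = 0.00262), was -0.04 with that library as the only control, and turned to 0.05 after median-of-ratios scaling. The TPPA-like phosphatase gene Csa3G175690 lay at 11.2, 10.4 and 9.57 against 22.8, 15.4 and 17.4, and its log2 change was -0.76 (SE 0.18, limma adjusted p = 0.00928). Like the TPPG-like gene it was highest in wild type library 1, and after median-of-ratios scaling its log2 change was 0.10. Whether reads were divided between such similar family members is not given in the sources used here, so their separate values are uncertain.

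Set against the TPS1-like gene in the same library, a comparison chosen after the values were seen and given without a test, each of the 4 genes was lower in every mutant library than in every wild type library. The TPS9-like to TPS1-like ratio averaged 0.133 in the mutant and 0.597 in wild type, 4.48 times as much. The corresponding wild type to mutant factor was 3.75 for the TPPG-like, 3.24 for the PPDK-like and 2.64 for the AMY2-like gene. These ratios do not depend on library scaling, but the table was selected for genes that differ, and a gene listed as up set against genes listed as down must separate the genotypes.

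**Figure D2:**
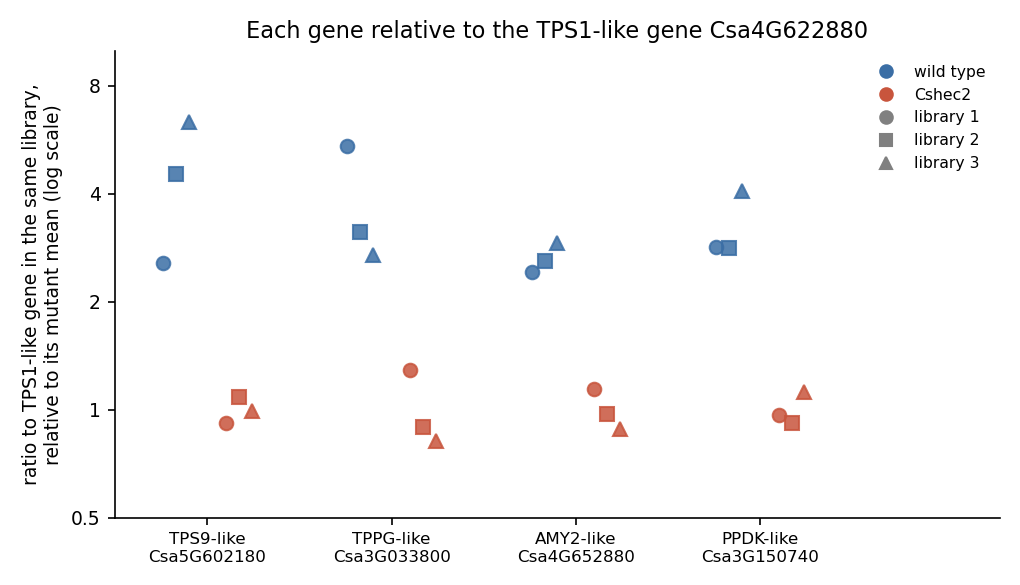
Ratio of each of the 4 genes to the TPS1-like gene Csa4G622880 in the same library, divided by its mean over the mutant libraries (y axis, log scale). Blue points are wild type, red points Cshec2, and shapes give the library number. Wild type points lie between 2.42 (AMY2-like, library 1) and 6.32 (TPS9-like, library 3) times the mutant mean.

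Around the 4 genes, 7 keyword lists of carbohydrate genes held 26 genes of the table, the 4 included. Of the 26, 17 were lower, 4 were higher and 5 did not pass, with a median log2 change of -0.67 beside -0.77 for the table. Over all listed genes 74.3% were lower and 18.4% higher, so the lists did not hold more lower genes than the table. Without the 4 genes, 13 of 22 were lower, and after median-of-ratios scaling 2 of the 26 were, against 14.2% of the table. Against wild type library 1 alone, the median log2 change of the 26 was -0.47, beside -0.66 for the table. Without mutant library 2 or mutant library 3, 10 and 9 of the 26 were called lower. Over all 1589 listed genes the numbers also fell, from 1180 with all libraries to 823 and 850. The raffinose list, the sugars that cucurbits carry in the phloem, held 0 genes.

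Starch genes of both breakdown and synthesis are listed as down in the authors' deposited table. The BAM4-like gene Csa3G047820, in Arabidopsis a beta-amylase relative without catalytic activity that is still needed for normal starch breakdown, lay at 1.32, 1.59 and 1.41 in the mutant and 1.99, 3.02 and 5.46 in wild type (log2 change -0.81, limma adjusted p = 0.0282). When wild type was represented by library 1 alone, its log2 change was -0.30. Leaving out wild type library 2 or mutant library 1, 2 or 3 also ended its call (adjusted p = 0.0605, 0.0779, 0.0609 and 0.0712). On the synthesis side, the large subunit gene of glucose-1-phosphate adenylyltransferase, Csa6G153460, which supplies ADP-glucose to starch, had means of 2.82 ± 0.488 and 6.0 ± 0.989 (log2 change -0.87, SE 0.18, limma adjusted p = 0.0064). Granule-bound starch synthase, Csa5G146950, makes amylose. It lay at 129, 125 and 123 against 130, 177 and 275 and did not pass (adjusted p = 0.0803). As with the TPS10-like gene, its wild type library 1 was level with the mutant, and without that library it passed (log2 change -0.81, adjusted p = 0.00918).

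In the sucrose and hexose list 3 of 4 genes were lower, close to the 74.3% of the table. The alkaline/neutral invertase A gene Csa2G034660, which splits sucrose, fell to 15.0 ± 4.35 from 48.6 ± 18.1 (log2 change -1.59, SE 0.33, limma adjusted p = 0.00575). The gene described as a putative invertase inhibitor, Csa6G080370, fell to 0.265 ± 0.0742 from 1.65 ± 0.223 (log2 change -1.07, SE 0.11, limma adjusted p = 0.000878). Its annotated domain is that of invertase or pectin methylesterase inhibitors, so which enzyme it acts on is not settled. The value of 1 added before taking logs understates the change of the inhibitor gene. With 0.1 in its place the log2 change was -2.28, beside -1.65 for the invertase A gene. Median-of-ratios scaling, again with 1 added, left the inhibitor gene called, at -0.69 on the log2 scale (adjusted p = 0.00415). That scaling ended the call of the invertase A gene (-0.70, adjusted p = 0.216), and 1 of the 4 was then lower. The sucrose synthase 5 gene Csa5G322500 measured 4.28 ± 0.373 against 8.05 ± 3.22 (adjusted p = 0.0323). It did not pass without wild type library 2 or mutant library 1, 2 or 3 (adjusted p = 0.0526, 0.0671, 0.0947 and 0.0762). The invertase C gene Csa3G168930 lay at 7.05, 10.1 and 17.5 in wild type against 6.38 ± 0.666 and did not pass (adjusted p = 0.0645), though it did without wild type library 1 (log2 change -0.96, adjusted p = 0.00918).

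The PPDK-like gene is in a list of 12 genes found by words for enzymes of phosphoenolpyruvate, pyruvate and their path to sugars. Of the 12, 8 were lower, 2 were higher and 2 did not pass, against 74.3% lower in the table. After median-of-ratios scaling 1 of the 12 was lower, and the list's median log2 change was 0.30. The largest change on the log2 scale among the 12 was that of phosphoenolpyruvate carboxykinase, Csa3G893410, which makes phosphoenolpyruvate from oxaloacetate at the start of gluconeogenesis. It lay at 26.0, 30.4 and 35.2 in the mutant libraries and at 83.0, 75.4 and 110 in wild type. The lowest wild type value was 2.14 times the highest mutant value, and the log2 change was -1.51 (SE 0.20, limma adjusted p = 0.00151). Median-of-ratios scaling left it called, at -0.60 on the log2 scale (adjusted p = 0.0288), which the PPDK-like gene was not. Cytosolic fructose-1,6-bisphosphatase, Csa6G042490, a later step of the same path, measured 10.4 ± 1.18 against 18.8 ± 3.10 (log2 change -0.79, adjusted p = 0.00753). Glyoxysomal malate dehydrogenase, Csa6G497060, measured 35.2 ± 1.17 against 52.9 ± 7.27 (log2 change -0.57, adjusted p = 0.0121), and missed the threshold without mutant library 3 (adjusted p = 0.0501). One of the 12 genes, a methylthioribulose dehydratase-enolase, acts in methionine salvage and was matched by spelling.

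The 4 higher genes of the 26 were the TPS1-like gene and 3 more. Csa4G006180 is described as SNF1-related protein kinase regulatory subunit gamma-like PV42a, and its annotated domain is CBS alone. That description does not establish that it acts in the SnRK1 kinase. It lay at 7.07, 8.43 and 7.23 in the mutant and 5.62, 3.92 and 3.65 in wild type (log2 change 0.68, SE 0.19, limma adjusted p = 0.0151). It did not pass without mutant library 2 (adjusted p = 0.0592), and its log2 change was 0.37 with wild type library 1 alone. A phosphoglycerate mutase-like gene, Csa3G893370, measured 1.62 ± 0.0458 against 0.729 ± 0.321 (log2 change 0.61, adjusted p = 0.00989). Another gene of the same description, Csa3G893350, named after its values were seen, went the other way. For both, the annotated domain is the histidine phosphatase superfamily alone, so a role in the sugar path is not established. That gene measured 1.27 ± 0.236 against 2.15 ± 0.298 (log2 change -0.47, limma adjusted p = 0.0182). Pyruvate decarboxylase 1, Csa4G312240, which opens the fermentation of pyruvate and was named after its values were seen, measured 1.90 ± 0.129 against 1.11 ± 0.229 (log2 change 0.47, adjusted p = 0.0141).

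**Figure D3:**
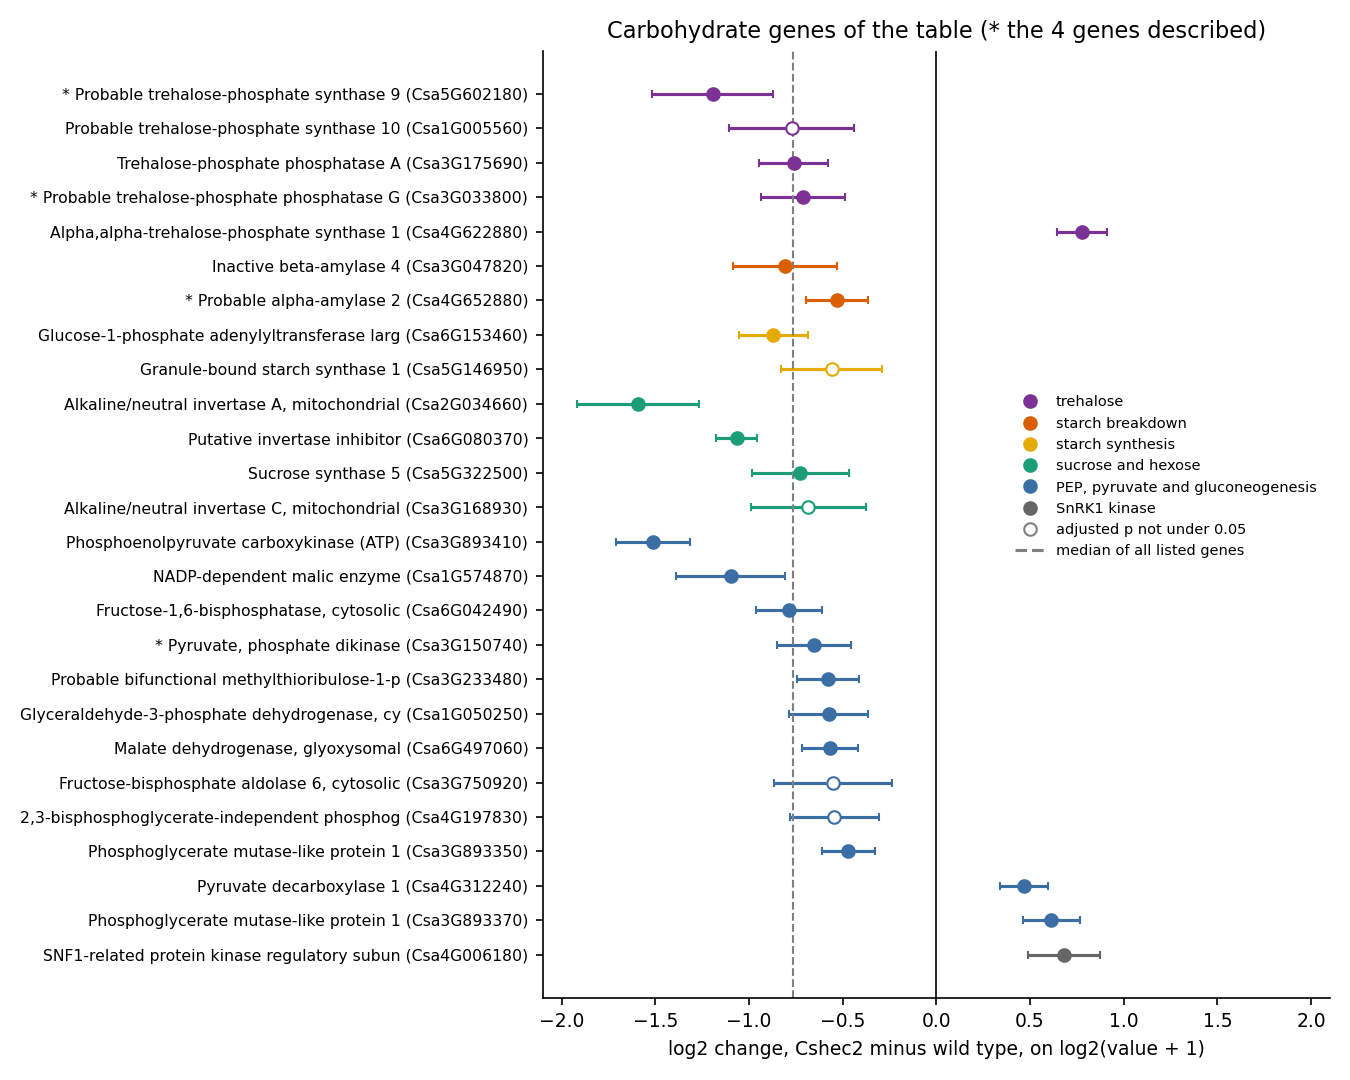
Log2 change (Cshec2 minus wild type, on log2(value + 1)) of the 26 carbohydrate genes, with bars of 1 SE from limma, coloured by list. Open points did not reach an adjusted p of 0.05, asterisks mark the 4 genes described, and the dashed line is the median of all listed genes (-0.77). The TPS1-like gene (0.78) and 3 others lie to the right of 0, and the TPS9-like gene (-1.19) is the lowest of the trehalose list.

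The wild type libraries carried much of the variation. Over the table, the median SD of log2(value + 1) was 0.28 for wild type libraries against 0.13 for mutant ones. Wild type library 3 was the highest of the 3 in 51.6% of listed genes and library 1 in 38.6%. Among the 4 genes library 3 was highest for 3 and library 1 for 1, and among the 26 carbohydrate genes library 3 was highest for 18. The SD of the TPS9-like gene within wild type exceeded that of 86.5% of listed genes, and that of the AMY2-like gene exceeded 27.7%. The gap between wild type libraries 1 and 3 ran one way for the TPS9-like, TPS10-like and BAM4-like genes and the other way for both phosphatase genes. What set these libraries apart is not given in the labels, and its part in the results was not tested.

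**Figure D4:**
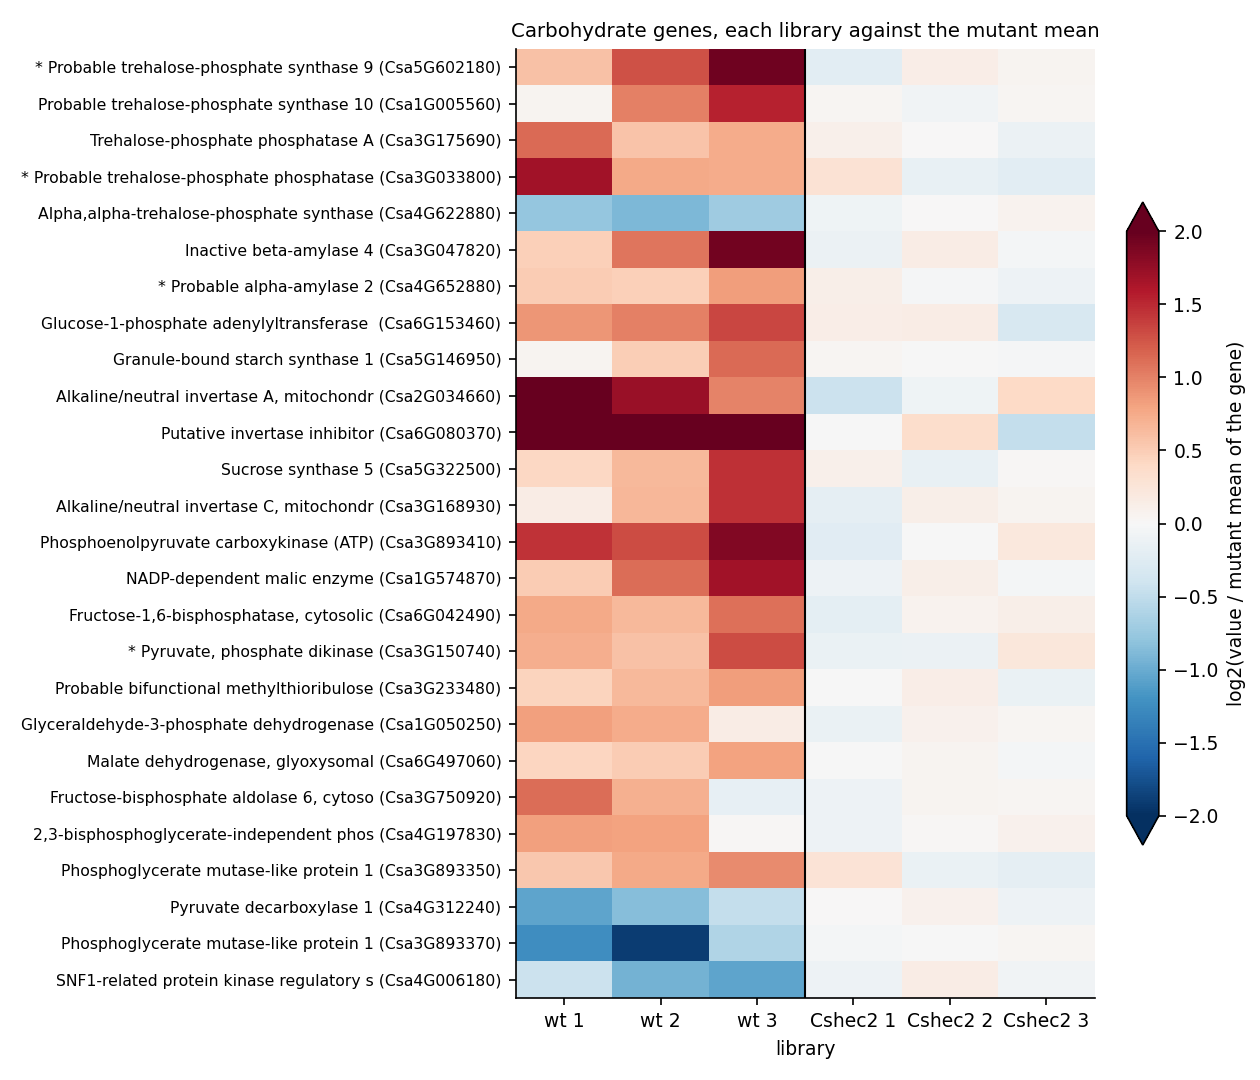
Heat map of the 26 carbohydrate genes (rows) in the 6 libraries (columns). Colour gives the log2 of the value over the gene's mutant mean, red above and blue below, with colours saturating at the ends of the bar, and asterisks mark the 4 genes described. The wild type columns differ within rows, for example 13.3 to 34.3 for the TPS9-like gene and 5.73 to 16.1 for the TPS10-like gene. The 3 mutant columns centre on white because each gene is divided by its mutant mean.

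For each gene, the 2 described genes with the most similar profile were found by the root mean square difference of log2(value + 1) over the 6 libraries, after each gene's mean had been removed. For the TPS9-like gene these were Csa6G014490, described as the adenine/guanine permease AZG1 (difference 0.0556), and Csa4G618500, described as a flavonoid 3-O-glucosyltransferase (0.0648). The median difference from the TPS9-like gene over the described genes was 0.512. For the TPPG-like gene they were a phenylalanine ammonia-lyase gene, Csa6G445760 (0.0919), and the ethylene-responsive factor gene ERF038, Csa3G019400 (0.103), against a median of 0.467. For the AMY2-like gene they were Csa5G610450, described as RNA polymerase II degradation factor 1 (0.0212), and Csa4G331080, described as proactivator polypeptide-like 1 (0.0550). For the PPDK-like gene they were a phloem protein 2-like gene, Csa6G495840 (0.0541), and a receptor-like protein kinase 5 gene, Csa1G574960 (0.0674). No gene was named for more than 1 of the 4. The added 1 narrows the profiles of genes at low values, so the likeness depends on it. For example, with 0.1 in its place the log2 change was -2.13 for Csa6G014490 and -1.27 for the TPS9-like gene. At that setting it was -1.75 for Csa6G445760 and -1.02 for the TPPG-like gene. With 6 libraries in a table of selected genes, such likeness is a description.

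Lists found by tissue words in the descriptions also held listed genes. Such a match does not make a gene a marker of that tissue. All 3 photosynthesis genes in the table were lower (74.3% of the table was), 0 of 3 after median-of-ratios scaling, with summed values between 109 and 125 in the mutant and between 165 and 213 in wild type. Of 6 genes matched by phloem words 3 were higher, 2 lower and 1 did not pass, against 18.4% higher and 74.3% lower in the table. After median-of-ratios scaling 3 of the 6 were higher and 0 lower, against 18.4% and 14.2% of the table. Without that scaling their median log2 change was -0.006, while their summed values were between 121 and 128 in the mutant and 142 to 227 in wild type. No listed gene was described by pollen, anther or tapetum (0 genes). The part of tissue make-up in the values of the 4 genes was not tested, and the labelled tissue could not be checked, since the table leaves out genes that did not differ.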

How the data were processed

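RNA-seq libraries of 3 wild type and 3 Cshec2 mutant samples were compared. Per the labels' protocols, RNA was extracted with Trizol and libraries were made with an Illumina kit. The submitters' processing notes list the tools HISAT2, HISAT and DESeq2, with no version or role. Neither genome build nor annotation is named in those sources. The deposited values per gene and library are a normalised expression signal made by the authors, of unnamed unit. They are not whole numbers, so read depth is unknown, and no counting interval or detection floor is printed. The FDR in the deposited table is an adjusted p-value of the authors, at most 0.05, and the log2 fold change of the authors is at least 0.585 in size. One gene has neither.

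The comparison used limma 3.58.1 (R 4.3.3) with a variance trend, on log2(value + 1) without a filter, with Benjamini-Hochberg adjustment over 1589 genes and a threshold of 0.05. The fit was tested on simulated data first. Those data had equal spread in both groups and no selection of genes, unlike the deposited table, so they are no check of the calls here. Single values used exact permutation tests (scipy 1.17.1). Gene names came from descriptions in the table, as 0 identifiers were found in the RefSeq gene table. Carbohydrate (7) and tissue (3) lists were keyword searches of those descriptions. The genes named were the 4 genes, all trehalose and starch breakdown genes, up to 4 genes of smallest p of each other carbohydrate list, and 2 genes of most similar profile for each of the 4. The 4 genes and the lists were chosen with earlier results of these data known. Alternatives were median-of-ratios scaling, a fit without the trend, a minimum mean of 1, pseudocounts of 0.5 and 0.1, a block for the replicate number, leaving out each library, and wild type library 1 as the single control. No 2 libraries held identical values. Figures were drawn with matplotlib 3.10.9.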

Additional observations from a re-analysis of the deposited data

How the results depend on the processing

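Median-of-ratios scaling, which centres a table of mostly lower genes, changed the most. The number of genes called lower went from 1180 to 225 over the table, from 17 to 2 in the carbohydrate lists and from 4 to 0 among the 4 genes. Log2 changes became -0.33 for Csa5G602180 and -0.11 for Csa3G033800 (not called), and changed sign to 0.28 for Csa4G652880 and 0.032 for Csa3G150740. Among other named genes they changed sign to 0.048 for Csa1G005560, 0.10 for Csa3G175690, 0.37 for Csa5G146950, 0.068 for Csa5G322500, 0.15 for Csa3G168930, 0.082 for Csa6G042490, 0.34 for Csa6G497060, 0.21 for Csa3G019400, 0.35 for Csa5G610450, 0.29 for Csa4G331080 and 0.14 for Csa6G495840.

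When each library was left out in turn, the log2 change lay between -0.83 and -0.48 for Csa3G033800, -0.59 and -0.42 for Csa4G652880 and -0.76 and -0.48 for Csa3G150740, each without passing in 2 of the 6 fits. For Csa5G602180 it lay between -1.52 and -0.87 and passed in each. Between 1 and 4 of the 4 genes and between 9 and 19 of the 26 carbohydrate genes were called lower in these fits. Over the 1589 listed genes the same fits called between 823 and 1236 lower, beside 1180 with all libraries. The TPS9-like to TPPG-like log2 ratio difference lay between -0.86 and 0.30, and the TPPG-like to PPDK-like one between -0.57 and 0.20, so neither has a settled sign. The fits without a mutant library have fewer samples in the group of smaller spread.

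With the replicate number as a block, Csa4G652880 did not pass (log2 change -0.53, adjusted p = 0.0581), and 3 of the 4 genes were called lower. Over the 1589 listed genes, 1104 were called lower with that block, beside 1180 without it. Whether the replicate numbers pair the libraries is not given in the labels. The deviations of same-numbered libraries from their group means correlated at -0.09, -0.04 and -0.18 over genes. With 3 libraries a group and a table of selected genes, these values cannot decide it. The other settings (no trend, a mean of at least 1, pseudocounts of 0.1 and 0.5) kept the direction and the call of all 4 genes. With wild type library 1 alone all 4 kept their direction. Its spread comes from the mutant libraries, so its p-values are no check of the calls. Depth is unknown, so precision rests on 3 libraries a group.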
